A study of Mus musculus with 48 samples.

Results

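The 8 genes described here make up the corticosteroid receptors and the corticotropin-releasing hormone (CRH) system. They are Nr3c1, Nr3c2, Hsd11b1, Fkbp4, Crh, Crhbp, Crhr1 and Crhr2. They were taken by symbol from a table of 56893 genes, and the choice was made with earlier results of these data known. All 8 were among the 17352 genes with enough reads to be tested. Messenger RNA was measured in one brain hemisphere from each of 48 mice aged 5.5 to 8.5 months, in 12 groups of 4 given by sex, genotype and feeding state. Control mice were Grin1fl/fl, with both copies of the NMDA receptor subunit gene Grin1 flanked by recombination sites, except for 1 unrestricted female control with the genotype Grin1fl/+. Knockout mice were Aldh1a1+/P2A-CreERT2::Grin1fl/fl, in which a tamoxifen-dependent Cre recombinase is placed at the Aldh1a1 locus, so that recombination is limited to cells that use that locus while a whole hemisphere was sequenced. Every mouse, controls included, was moved from a group cage to a single cage with chow. Unrestricted mice spent about 2 days alone with food. Restricted mice were collected after 2 nights without food, with chow given in between. Refed mice had the same 2 nights of restriction and then 3 days of free access to grain-based pellets from an automatic feeder. Each feeding state was therefore represented by 16 mice, 8 of each sex. Comparisons with refed mice hold refeeding together with longer single housing and the change of food and feeder, which cannot be told apart.

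Glucocorticoids such as corticosterone, the main one in mice, are released by the adrenal gland at the end of the hypothalamic-pituitary-adrenal (HPA) axis. CRH, made by neurons of the hypothalamus and of several forebrain areas, drives the pituitary step of that axis and also acts as a transmitter within the brain. In brain cells corticosterone binds the mineralocorticoid receptor (Nr3c2) with high affinity and the glucocorticoid receptor (Nr3c1) with lower affinity, and both then act as transcription factors.

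Library totals ranged from 7574827 to 16185373 estimated counts. Grin1 did not differ detectably between genotypes over the whole hemisphere (351 ± 49.3 CPM in controls and 356 ± 29.4 in knockouts, SD, n = 24 each; edgeR adjusted p = 1). Aldh1a1, the locus that carries the Cre insertion, was at 190 ± 27.3 CPM in controls and 101 ± 16.7 in knockouts (log2 change -0.92, SE 0.054, edgeR adjusted p = 1.42e-16). Markers of neurons, astrocytes, oligodendrocytes and microglia were detected in every library. Hypothalamic markers were low and uneven, with summed levels of the 6 genes tested between 6.73 and 125 CPM. Summed levels of the 4 pituitary markers tested had medians of 7.81 to 14.2 CPM by feeding state. The highest library reached 1232 CPM among unrestricted, 1256 CPM among restricted and 582 CPM among refed mice. A pair of libraries stood apart. Male control refed replicate 1 held 1143 CPM of the muscle gene Acta1, against at most 76.1 CPM elsewhere, and female knockout unrestricted replicate 2 held 85290 CPM of the ribosomal RNA gene Rn18s-rs5 and had the lowest scaling factor (0.913). The labels number the libraries, and all 16 refed libraries are numbered up to 28, with 7 of the restricted and 5 of the unrestricted ones. What the library numbers stand for is not given. The changes of the 8 members after restriction and on refeeding were therefore also computed with them, as were those of Nr3c1, Nr3c2, Fkbp4, Crh and Crhbp between refed and unrestricted mice. Changes of other genes and of markers were not. In the model the library numbers entered as a split, up to 28 or from 29. Refed libraries all lay on the lower side, so the effect of the split was estimated from restricted and unrestricted mice alone.

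Levels differed widely between the 8 genes. To compare genes, the CPM (counts scaled to the size of the library) were divided by the length of the canonical transcript in kilobases. Fkbp4, a cochaperone that sits with Hsp90 on steroid receptors and helps their transport to the nucleus, was highest at 50.9 ± 5.22 CPM per kb (SD, n = 48 here and for the other 7 genes). Hsd11b1, the enzyme that regenerates active glucocorticoid from its inert 11-keto form inside cells, followed at 17.3 ± 2.26 CPM per kb. The glucocorticoid receptor Nr3c1 was at 11.2 ± 1.15 CPM per kb, above the mineralocorticoid receptor Nr3c2 at 7.07 ± 0.81. The CRH type 1 receptor Crhr1 (7.61 ± 0.99 CPM per kb) and the CRH-binding protein Crhbp (6.52 ± 0.94 CPM per kb) lay on either side of Nr3c2, and each differed from Nr3c2 by less than its SD. The hormone Crh was at 2.71 ± 0.73 and its type 2 receptor Crhr2 at 0.75 ± 0.21 CPM per kb. Depth limits the last 2 genes most. Crh rested on 19 to 70 counts per library and Crhr2 on 9 to 40, against 491 to 1201 for Nr3c1 and 710 to 2062 for Fkbp4.

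On GRCm39 the members lie on 7 chromosomes. Nr3c1 spans 39543598 to 39652474 of chromosome 18 (minus strand) and Nr3c2 spans 77625576 to 77971863 of chromosome 8 (plus strand). Hsd11b1 lies at 192903918 to 192946489 of chromosome 1 and Crh at 19747565 to 19749655 of chromosome 3, both on the minus strand. Fkbp4 (128406698 to 128415665) and Crhr2 (55067032 to 55110027) share chromosome 6 and the minus strand. Crhbp lies at 95567879 to 95581841 of chromosome 13 (minus strand) and Crhr1 at 104023164 to 104066351 of chromosome 11 (plus strand). Exons of Nr3c1, Nr3c2 and Crhr2 each overlap an opposite-strand long noncoding RNA. The partner of Nr3c1, Gm58395, was not among the genes with deposited counts, so it has no level here. The partner of Nr3c2, Gm10649, had a median of 2.04 CPM and that of Crhr2, Gm34358, was at 0 in all libraries. Whether the counting used strand is not given in the sources used here, so reads of these pairs may not be separable. In 19 of 48 libraries the Nr3c2 count was more than 0.01 away from a whole number, a sign of reads shared with another annotated gene, and this was so in 0 libraries for the other 7 members.

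**Figure D1:**
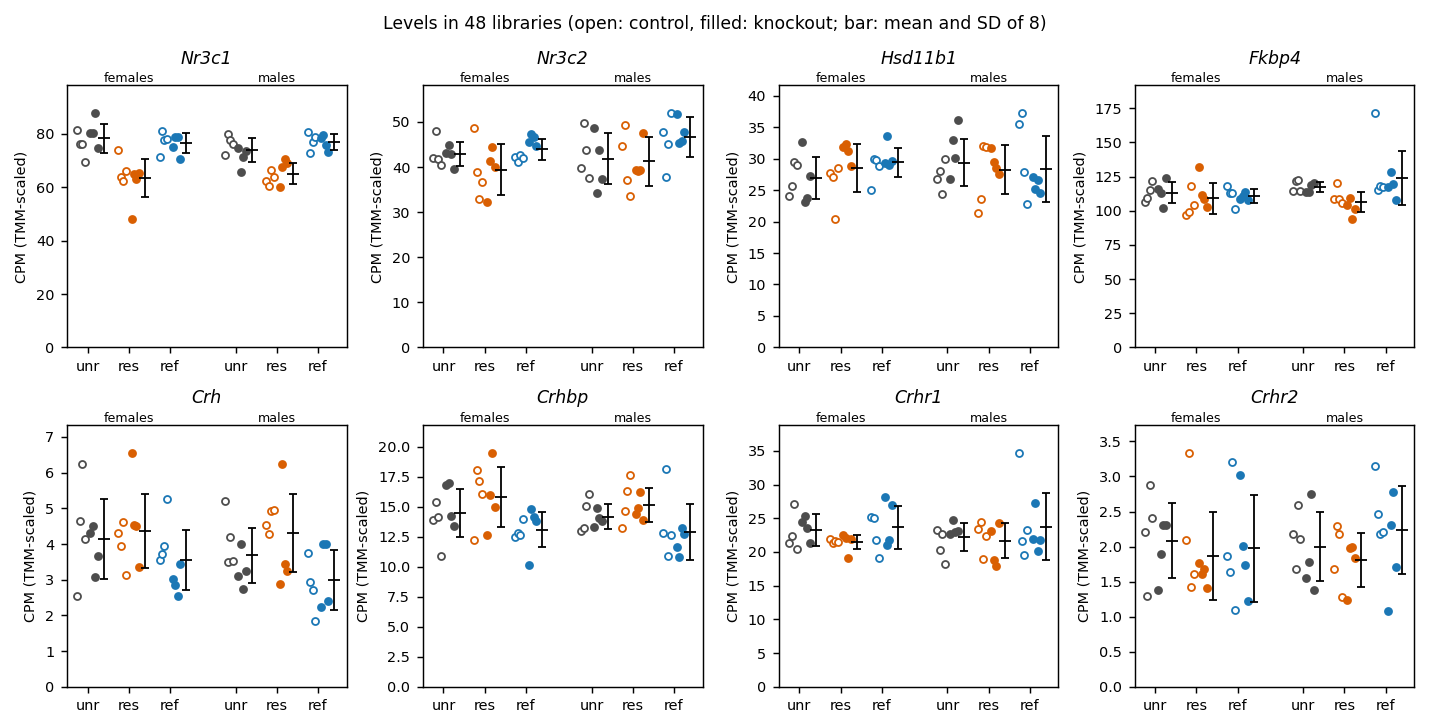
CPM of the 8 genes in the 48 libraries, by sex and feeding state (unr, unrestricted; res, restricted; ref, refed). Each point is 1 mouse, open for controls and filled for knockouts, and bars give the mean and SD of 8 mice. The restricted points of Nr3c1 sit below nearly all others in both sexes, while those of Hsd11b1 and Crhr2 overlap throughout.

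Nr3c1 was the 1 member of 8 that changed after 2 nights of restriction, and it fell in both sexes and both genotypes. Restriction changed 15.2% of all genes tested at an adjusted p under 0.05 (2630 of 17352, edgeR quasi-likelihood test with Benjamini-Hochberg adjustment over all genes), of which 7.31% rose and 7.84% fell, so a count of 1 in 8 is close to the share over all genes. The level of Nr3c1 was between 65.5 and 87.6 CPM (median 76.1) in the 16 unrestricted mice and between 48.1 and 74.0 CPM (median 64.4) in the 16 restricted mice. The ranges overlapped, yet all 16 restricted mice lay below the unrestricted median and 10 lay below the lowest unrestricted mouse. Averaged over sex and genotype, the log2 level fell by 0.24 (SE 0.036, 95% interval -0.32 to -0.17, edgeR adjusted p = 1.7e-06), or by 15.5%. By p-value Nr3c1 ranked 254 among the genes tested.

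By individual mouse, Nr3c1 in control females was at 81.4, 76.1, 76.1 and 69.6 CPM without restriction and at 74.0, 63.6, 62.4 and 66.1 CPM after it. In knockout females it was at 80.3, 80.1, 87.6 and 74.6 CPM and then at 48.1, 64.9, 63.2 and 65.1 CPM, with no overlap between the states. In control males the values were 71.9, 79.8, 77.6 and 76.3 CPM, then 62.3, 60.5, 66.3 and 63.9 CPM, again without overlap. In knockout males the values overlapped, with 74.8, 65.5, 71.3 and 73.4 CPM before and 60.1, 67.3, 70.4 and 69.0 CPM after. The fall was 0.30 on the log2 scale in females (SE 0.051, edgeR adjusted p = 6.59e-05) and 0.19 in males (SE 0.051, edgeR adjusted p = 0.0141), where 6.27% and 8.28% of all genes were called. The change did not differ detectably between the sexes for any member (edgeR F test of the feeding changes by sex, smallest adjusted p of a member 0.807), and 0 of 17352 genes (0%) passed that test.

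The fall of Nr3c1 had the same size with the library numbers in the model (log2 change -0.24, edgeR adjusted p = 2.68e-06). Among libraries numbered up to 28, with 5 unrestricted and 7 restricted mice, it was -0.28 but missed the threshold (SE 0.071, edgeR adjusted p = 0.0512). Among those numbered from 29 it was -0.20 (SE 0.043, edgeR adjusted p = 0.00559).

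The other corticosteroid genes did not pass the test for restriction. The mineralocorticoid receptor Nr3c2 was at 34.3 to 49.8 CPM (median 42.5) in unrestricted and 32.2 to 49.4 CPM (median 39.5) in restricted mice, with a log2 change of -0.07 (95% interval -0.18 to 0.047). Fkbp4 was at 102 to 124 CPM (median 115) and then at 94.3 to 132 CPM (median 107), and 13 of 16 restricted mice lay below the unrestricted median. Its log2 change was -0.10 (SE 0.043, edgeR adjusted p = 0.125), and it passed with limma voom and sample weights (adjusted p = 0.0262) and without the pair of libraries that stood apart (edgeR adjusted p = 0.0447). Hsd11b1 was at 23.1 to 36.1 CPM (median 27.6) and 20.4 to 32.3 CPM (median 28.7), a log2 change of 0.01 with a 95% interval from -0.11 to 0.14.

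None of the 4 CRH genes passed the test for restriction. Crh was at 2.55 to 6.24 CPM (median 3.82) in unrestricted and 2.89 to 6.56 CPM (median 4.40) in restricted mice, a log2 change of 0.15 (SE 0.12, edgeR adjusted p = 0.428). Crhbp, a secreted protein that binds CRH and limits its access to receptors, was at 10.9 to 16.98 CPM (median 14.1) and then 12.3 to 19.5 CPM (median 15.5). Its mean was higher in all 4 combinations of sex and genotype, yet the log2 change of 0.11 did not pass (SE 0.067, edgeR adjusted p = 0.291). The log2 changes of the receptors Crhr1 and Crhr2 were -0.07 (95% interval -0.20 to 0.058) and -0.16 (95% interval -0.46 to 0.14).

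**Figure D2:**
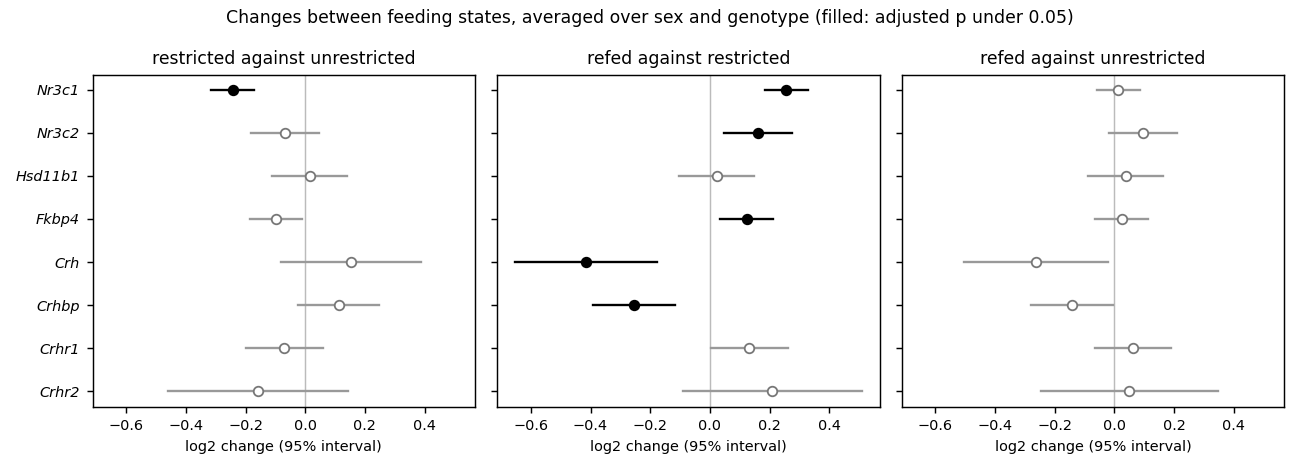
Log2 changes of the 8 genes between feeding states, averaged over sex and genotype, with 95% intervals; filled points passed an adjusted p under 0.05. Nr3c1 is at -0.24 after restriction and at 0.26 from restriction to refeeding, while Crh and Crhbp are lower in refed than in restricted mice at -0.42 and -0.25.

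Between restriction and refeeding, 5 of the 8 members changed: Nr3c1, Nr3c2 and Fkbp4 rose, and Crh and Crhbp fell. Over all genes 15.2% were called in that comparison (2632 of 17352), with 8.38% higher and 6.79% lower. Nr3c1 was at 70.6 to 81.2 CPM (median 77.7) in the 16 refed mice, where 12 lay above the highest restricted mouse and all 16 above the restricted median. It rose by 0.26 on the log2 scale (SE 0.036, 95% interval 0.18 to 0.33, edgeR adjusted p = 7.58e-07). Refed values of Nr3c1 did not overlap the restricted ones in males (72.6 to 80.5 CPM against 60.1 to 70.4 CPM). They overlapped in females through 1 restricted mouse at 74.0 CPM, with a refed range of 70.6 to 81.2 CPM. The rise of Nr3c1 was 0.27 in females (edgeR adjusted p = 0.00049) and 0.24 in males (edgeR adjusted p = 0.000986), where 6.1% and 8.33% of all genes were called.

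Nr3c2 was at 37.7 to 51.9 CPM (median 45.4) in refed mice, and 15 of 16 lay above the restricted median of 39.5 CPM. Its mean was higher in all 4 combinations of sex and genotype, and it rose by 0.16 on the log2 scale (SE 0.057, edgeR adjusted p = 0.0435). By sex Nr3c2 was called neither in females (0.15, edgeR adjusted p = 0.303) nor in males (0.17, edgeR adjusted p = 0.18). Fkbp4 was at 101 to 171 CPM (median 114) in refed mice and rose by 0.12 (SE 0.044, edgeR adjusted p = 0.0481). The highest Fkbp4 value came from male control refed replicate 1, the library with muscle transcripts, and the 3 other mice of its group were at 115, 118 and 117 CPM. Fkbp4 was called in males (0.22, SE 0.061, edgeR adjusted p = 0.0166) and was at 0.02 in females (edgeR adjusted p = 0.88). Without that library the change in males was 0.14 (edgeR adjusted p = 0.0956) and that over both sexes 0.08 (edgeR adjusted p = 0.121).

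Crh was at 1.83 to 5.26 CPM (median 3.23) in refed mice, and 15 of the 16 lay below the restricted median of 4.40 CPM. It fell by 0.42 on the log2 scale (SE 0.12, 95% interval -0.65 to -0.18, edgeR adjusted p = 0.0121). In control males the 4 refed mice, at 3.74, 2.93, 2.71 and 1.83 CPM, all lay below the 4 restricted ones at 4.54, 4.28, 4.92 and 4.94 CPM. In knockout females the refed values of 3.01, 2.84, 2.55 and 3.45 CPM overlapped the restricted ones of 6.56, 4.53, 4.49 and 3.34 CPM through the lowest restricted mouse. Mean Crh was not lower on refeeding in 1 of the 4 combinations, the control females, where restricted mice were at 4.31, 3.95, 4.61 and 3.14 CPM and refed mice at 3.55, 3.72, 3.95 and 5.26 CPM. In knockout males the restricted mice were at 2.89, 6.25, 3.45 and 3.25 CPM and the refed mice at 2.24, 4.004, 4.01 and 2.41 CPM. Of those restricted mice 1 lay above the refed range and the other 3 lay within it. By sex Crh was called in males (-0.51, edgeR adjusted p = 0.049) and not in females (-0.32, edgeR adjusted p = 0.294), and the difference between sexes did not pass its own test (edgeR adjusted p = 0.932). In males the call was lost with the library numbers in the model (-0.52, edgeR adjusted p = 0.0978), without a filter on low counts (edgeR adjusted p = 0.0615) and with only the groups compared (edgeR adjusted p = 0.154). It was also lost when any of 9 of the 16 libraries was left out. The smallest of these changes was -0.36 (edgeR adjusted p = 0.197), without male knockout restricted replicate 2.

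Crhbp was at 10.1 to 18.2 CPM (median 12.8) in refed mice, with 15 of 16 below the restricted median of 15.5 CPM. Its mean was lower in all 4 combinations, and it fell by 0.25 on the log2 scale (SE 0.068, edgeR adjusted p = 0.00708). By sex Crhbp was called neither in females (-0.27, edgeR adjusted p = 0.0818) nor in males (-0.23, edgeR adjusted p = 0.127). Across libraries, with each group's mean removed, the log2 levels of Crh and Crhbp had a Pearson r of 0.043 (48 libraries, a description only). The log2 ratio of Crh to Crhbp was -1.82 ± 0.38 in restricted and -1.96 ± 0.41 in refed mice (SD, n = 16 each). It was lower on refeeding in 2 of the 4 combinations. In the 7 restricted libraries numbered up to 28 it was -1.68 ± 0.43. This ratio was not tested.

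Crhr1 was at 19.1 to 34.7 CPM (median 21.8) in refed mice and its log2 change of 0.13 did not pass (SE 0.064, edgeR adjusted p = 0.16). The highest of these values came from male control refed replicate 1, without which the change was 0.076. Crhr2 was at 1.08 to 3.21 CPM (median 2.09), a log2 change of 0.21 with a 95% interval of -0.091 to 0.51. Hsd11b1 was at 22.7 to 37.2 CPM (median 28.9), a log2 change of 0.02 with an interval from -0.10 to 0.15.

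Of the 5 calls on refeeding, that of Nr3c1 alone was kept both with the library numbers in the model and among the libraries with lower numbers. With the numbers in the model Nr3c1 (0.26, edgeR adjusted p = 1.55e-05) and Crh (-0.42, edgeR adjusted p = 0.0379) kept their calls. Nr3c2 was then at 0.09 (edgeR adjusted p = 0.407), Fkbp4 at 0.12 (edgeR adjusted p = 0.115) and Crhbp at -0.21 (edgeR adjusted p = 0.0784). Among libraries numbered up to 28, with 7 restricted and 16 refed mice, only Nr3c1 was called (0.28, edgeR adjusted p = 0.00133). Crh was at -0.34 (edgeR adjusted p = 0.17), Crhbp at -0.12 (edgeR adjusted p = 0.554), Nr3c2 at 0.06 (edgeR adjusted p = 0.63) and Fkbp4 at 0.12 (edgeR adjusted p = 0.32) in those libraries. The calls of Nr3c2 and Fkbp4 were also lost when any of 16 and 23, respectively, of the 32 libraries was left out.

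After 3 days of refeeding 0 of the 8 members passed the test against unrestricted mice, against 0.738% of all genes (128 of 17352, edgeR), and 0 were called by DESeq2. Within females and within males the count was also 0, against 0.0403% and 0.167% of all genes. Nr3c1 was 0.01 above its unrestricted log2 level (95% interval -0.059 to 0.085). Nr3c2 was 0.10 higher (95% interval -0.018 to 0.21) and 0.0010 higher with the library numbers in the model, and Fkbp4 was 0.02 higher (95% interval -0.064 to 0.11). Crh and Crhbp were the 2 members with an unadjusted p under 0.05, against 13% of all genes. Crh was at -0.26 relative to unrestricted mice (SE 0.12, edgeR adjusted p = 0.343) and its mean was lower in all 4 combinations. Crhbp was at -0.14 (SE 0.068, edgeR adjusted p = 0.37), also lower in all 4. Among libraries numbered up to 28 these 2 changes were -0.17 and -0.12, with an edgeR adjusted p of 1 for both.

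The balance of the receptor transcripts is described by the log2 ratio of Nr3c1 to Nr3c2 in each library. It was 0.84 ± 0.13 in unrestricted mice, 0.67 ± 0.18 in restricted and 0.76 ± 0.12 in refed mice (SD, n = 16 each). The ratio was lower after restriction in all 4 combinations of sex and genotype, and the ranges overlapped (0.62 to 1.03 against 0.29 to 0.93). Among libraries numbered up to 28 the mean was 0.83 in unrestricted and 0.53 in restricted mice, and among those numbered from 29 it was 0.85 and 0.79. No test was made of this ratio, since it was chosen with the levels of both genes known.

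**Figure D3:**
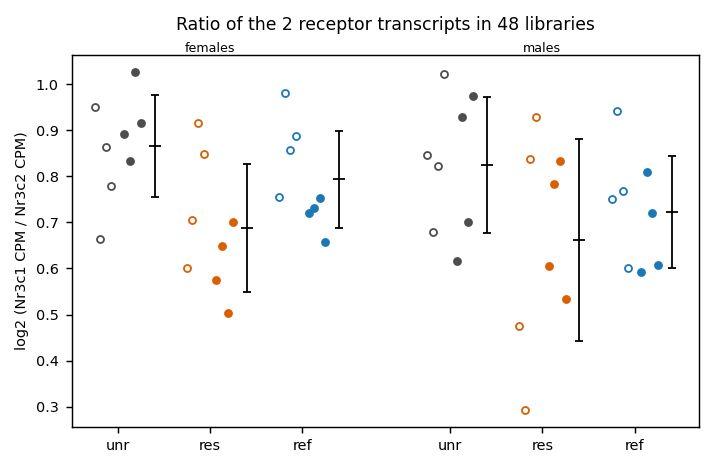
Log2 ratio of Nr3c1 to Nr3c2 CPM in each of the 48 libraries by sex and feeding state (unr, unrestricted; res, restricted; ref, refed), open for controls and filled for knockouts, with the mean and SD of 8 mice. Ratios of restricted mice reach down to 0.29, and the lowest unrestricted ratio is 0.62.

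Nr3c2 and Fkbp4 were called higher on refeeding in the main fit, as was Nr3c1. Unlike that of Nr3c1, their calls were lost with the library numbers in the model (edgeR adjusted p = 0.407 and 0.115). Both genes had an entry in the RefSeq promoter table, which holds 6 of the 8 members. Their promoter stretches on GRCm38.p6 are printed 5′ to 3′ on the gene's strand, from 250 bases before the RefSeq start up to the first annotated transcript. Capitals mark a CCAAT box (CCAAT) or a GC box (GGGCGG), each searched on both strands, so that a match on the opposite strand reads ATTGG or CCGCCC.
Fkbp4, chr6:128438707-128438906, minus strand: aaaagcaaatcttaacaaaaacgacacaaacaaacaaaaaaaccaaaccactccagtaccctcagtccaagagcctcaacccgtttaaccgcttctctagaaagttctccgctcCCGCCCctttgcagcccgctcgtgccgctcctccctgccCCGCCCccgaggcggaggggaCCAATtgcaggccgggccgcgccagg
Nr3c2, chr8:76902080-76902149, plus strand: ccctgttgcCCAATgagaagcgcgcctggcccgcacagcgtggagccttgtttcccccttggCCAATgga
The stretch of Fkbp4 has 1 CCAAT box and 2 GC boxes, which 28.4% and 24.6% of all promoter windows of 200 bases also hold at least once. The stretch of Nr3c2 has 2 CCAAT boxes, a motif present in 9.62% of windows of 70 bases. Neither stretch holds the glucocorticoid response element half-site AGAACA or the core ACANNNTGT, which occur in 13.2% and 4.79% of the 200-base windows and in 4.88% and 1.78% of the 70-base windows. These letters are a description of short windows.

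A list of 24 genes known to respond to glucocorticoids was set beside the receptors. Of these, 21 rose and 0 fell after restriction, with a median log2 change of 0.72. On refeeding 22 fell and 0 rose, with a median of -0.79. Over all genes tested 15.2% were called in each comparison, and the median was 0.00 in both. The list was chosen with earlier results of these mice known and is not independent evidence of its direction or size. The part of the receptors in these changes was not tested. Cdkn1a, an inhibitor of the cell cycle, had 11.8 ± 1.90 CPM before restriction, 50.3 ± 10.1 CPM after it and 10.4 ± 1.29 CPM after refeeding (SD, n = 16 each). Sult1a1, a sulfotransferase, went from 7.05 ± 1.48 to 21.1 ± 3.46 and 7.40 ± 1.24 CPM. Gjb6, a gap junction protein of astrocytes, rose by 0.73 and then fell by 0.64 on the log2 scale, and Fam107a, an actin-bundling protein, rose by 0.63 and fell by 0.86. Relative to unrestricted mice, 4 of the 24 were still higher after refeeding and 1 was lower: Fkbp5 (0.37, edgeR adjusted p = 0.0245), Tsc22d3 (0.30), Zbtb16 (0.59) and Hif3a (0.83) were higher, and Fam107a was lower (-0.22, edgeR adjusted p = 0.0183). Tsc22d3, Zbtb16 and Hif3a are named because they complete that count, chosen after their values were seen.

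Of 19 receptor cochaperones and coregulators, 1 rose and 2 fell after restriction, and 2 rose and 1 fell on refeeding, a share near the 15.2% of all genes called in each comparison. Fkbp5, which holds the glucocorticoid receptor in a form with low affinity for hormone and is the counterpart of Fkbp4 on Hsp90, was at 27.1 ± 5.30 CPM in unrestricted, 73.2 ± 11.6 in restricted and 34.99 ± 6.38 in refed mice (SD, n = 16 each). Restricted values of Fkbp5 (54.6 to 97.3 CPM) did not overlap those of unrestricted (21.2 to 38.97 CPM) or refed mice (25.4 to 45.7 CPM). In the same mice the log2 change of Fkbp4 was -0.10 and that of Fkbp5 was 1.43 (SE 0.084, edgeR adjusted p = 3.65e-17). Hspa4, a relative of the Hsp70 chaperones, fell by 0.15 and rose by 0.16. Bag1, a nucleotide exchange factor of Hsp70, fell by 0.14 and was 0.04 higher on refeeding without passing. Stip1, which links Hsp70 to Hsp90, was at -0.10 after restriction (edgeR adjusted p = 0.0504) and rose by 0.13 on refeeding.

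Of 14 genes of steroid supply and metabolism, 7 had enough reads to be tested, and Hsd11b2, the enzyme that inactivates corticosterone, was among the other 7. Abcb1a, the efflux pump of the blood-brain barrier that exports several steroids, rose by 0.30 after restriction (SE 0.073, edgeR adjusted p = 0.00297) and fell by 0.22 on refeeding (edgeR adjusted p = 0.0335). Cyp11a1, which starts steroid synthesis from cholesterol, fell by 0.39 after restriction (edgeR adjusted p = 0.0135) from a level of 2.34 ± 0.58 CPM. Srd5a1, a 5-alpha-reductase of steroids, rose by 0.21 on refeeding (edgeR adjusted p = 0.0323).

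Among 15 other genes of the CRH family and the HPA axis, 9 were tested, and the urocortins Ucn, Ucn2 and Ucn3, the other ligands of the CRH receptors, were not. Mc4r, the melanocortin receptor that curbs food intake, rose by 0.58 after restriction (SE 0.11, edgeR adjusted p = 0.000194), from 2.36 ± 0.67 to 3.48 ± 0.64 CPM. Adcyap1r1, the receptor for the peptide PACAP, rose by 0.15 on refeeding (edgeR adjusted p = 0.00775). The list had a median log2 change of -0.08 after restriction and of 0.00 on refeeding.

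Genes that carry CRH receptor signals inside the cell showed 2 rises and 2 falls among 18 after restriction, and 0 rises and 2 falls on refeeding, against 15.2% of all genes called in each comparison. Adcy9, an adenylyl cyclase, rose by 0.28 (SE 0.052, edgeR adjusted p = 7.07e-05) and Grk3, a kinase that desensitises receptors coupled to G proteins, rose by 0.12 (edgeR adjusted p = 0.037). Rgs4, which shortens signalling by G proteins, fell by 0.26 and Prkar2b, a regulatory subunit of protein kinase A, fell by 0.17. On refeeding the CREB coactivator Crtc2 fell by 0.21 (edgeR adjusted p = 0.00234) and Crem, a cAMP-responsive transcription factor, fell by 0.28 (edgeR adjusted p = 0.023).

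**Figure D4:**
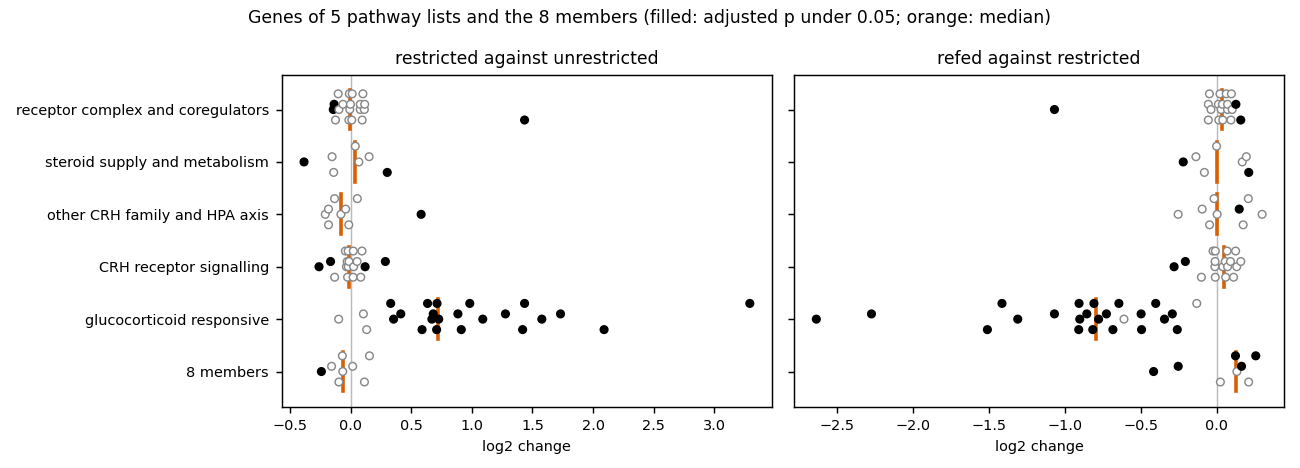
Log2 changes of the genes tested in 5 pathway lists and of the 8 members, for restriction (left) and refeeding (right), with filled points for an adjusted p under 0.05 and an orange bar for the list's median. The glucocorticoid-responsive genes have medians of 0.72 and -0.79, and the medians of the other lists lie between -0.08 and 0.05.

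Markers of some cell types moved with the feeding states in which Nr3c1 and the other members changed. Over all genes 15.2% were called in each comparison, and a count of 1 in 4 or 6 markers is not far from that share. Of 4 microglial markers 2 were lower after restriction and 4 were higher on refeeding, with summed levels of 123 to 148 CPM in unrestricted, 99.2 to 136 CPM in restricted and 124 to 156 CPM in refed mice. Of 4 oligodendrocyte markers 3 were lower and then 3 higher, although the summed median, set mostly by Mbp, was 9148, 10095 and 9029 CPM in unrestricted, restricted and refed mice, within ranges of 7081 to 12921, 6271 to 11903 and 7387 to 10545 CPM. Of 4 endothelial markers 2 were lower and then 1 higher, with summed levels of 102 to 133, 79.9 to 123 and 86.3 to 128 CPM. Of 4 astrocyte markers 1 was lower and then 1 higher, with summed levels of 741 to 958, 735 to 967 and 804 to 1186 CPM. Of 3 red cell markers 0 were called after restriction and all 3 were higher on refeeding. Their summed levels were 178 to 946, 188 to 554 and 498 to 1762 CPM in unrestricted, restricted and refed mice. All 3 were also higher in refed than in unrestricted mice, a comparison in which 0.738% of all genes were called. Of 6 markers of inhibitory neurons 1 was higher after restriction and 1 lower on refeeding, with summed levels of 933 to 1119, 966 to 1138 and 912 to 1456 CPM. Of 4 hippocampal markers 1 was higher on refeeding, with summed levels of 193 to 265, 207 to 270 and 195 to 301 CPM. Of 4 markers of meninges and fibroblasts 1 was lower and then 2 higher, with summed levels of 45.3 to 74.2, 45.9 to 71.2 and 47.9 to 83.7 CPM. Of 4 general neuronal markers and 4 of excitatory forebrain neurons 0 were called in either comparison. For the CRH genes, 1 of 6 tested hypothalamic markers was higher after restriction and 1 lower on refeeding, with summed levels of 37.4 to 125, 21.5 to 96.0 and 6.73 to 84.6 CPM, and Agrp was at 0 in some libraries. The part of these markers in the changes of the 8 members was not tested, and in a whole hemisphere fewer cells of a type and less RNA per cell cannot be told apart.

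Between knockout and control mice 0 of the 8 members were called, averaged over sex and feeding state. This held for edgeR and for DESeq2, and 0 had an unadjusted p under 0.05 by edgeR. The knockout genotype also holds the Cre insertion at Aldh1a1, so loss of Grin1 and the insertion cannot be told apart. Over all genes 0.00576% were called, which is Aldh1a1 alone, and 2.48% had an unadjusted p under 0.05. Nr3c1 was at 72.7 ± 6.74 CPM in controls and 71.9 ± 8.26 CPM in knockouts (SD, n = 24 each), a log2 change of -0.02 with a 95% interval of -0.078 to 0.040. The interval was -0.071 to 0.11 for Nr3c2, -0.034 to 0.17 for Hsd11b1 and -0.10 to 0.043 for Fkbp4. For Crhbp and Crhr1 it was -0.12 to 0.11 and -0.090 to 0.12. For the scarcer transcripts the bounds were wider, -0.33 to 0.064 for Crh and -0.43 to 0.054 for Crhr2.

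In each of the 6 pairs of control and knockout groups 0 of 8 members were called as well. Of all genes 0.0115% were called in unrestricted females, 0.386% in restricted females, 0.225% in refed males and 0.00576% in each of the other 3. Hsd11b1 was the member whose 95% interval left out 0, in 2 of these pairs and on opposite sides. These intervals were not adjusted for the 8 members and 6 pairs. By p-value Hsd11b1 ranked 2148 in restricted females and 1224 in refed males among the 17352 genes tested. In restricted females it was at 27.7, 27.1, 20.4 and 28.6 CPM in controls and at 31.9, 32.3, 31.2 and 28.8 CPM in knockouts, with no overlap and a log2 change of 0.25 (SE 0.12, edgeR adjusted p = 0.397). In refed males it was at 35.5, 37.2, 27.9 and 22.7 CPM in controls and at 27.1, 25.2, 26.6 and 24.5 CPM in knockouts, with overlap and a log2 change of -0.25 (SE 0.12, edgeR adjusted p = 0.654). The effect of genotype did not differ detectably between feeding states or sexes for any member (smallest edgeR adjusted p of 0.973 and 0.942), and 0 of 17352 genes (0%) passed either test.

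**Figure D5:**
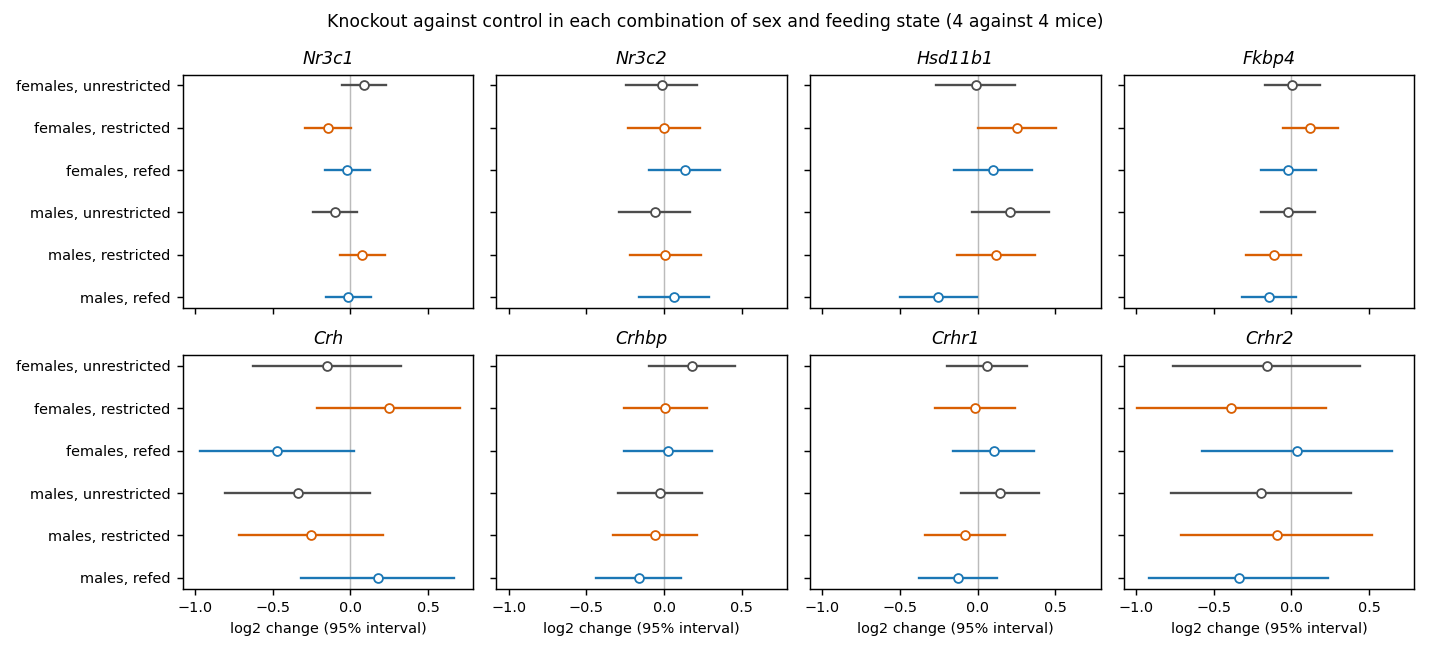
Log2 change of each member in knockout against control mice in the 6 combinations of sex and feeding state, 4 against 4 mice. The 95% intervals are not adjusted for the number of members and combinations. All points are open (adjusted p of 0.05 or more); the 2 intervals of Hsd11b1 that leave out 0 lie on opposite sides, at 0.25 in restricted females and -0.25 in refed males.

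No difference between males and females passed the test for the 8 members (0 called, 0 at an unadjusted p under 0.05 by edgeR, 0 called by DESeq2), against 0.357% of all genes called and 18% at that unadjusted p. The largest log2 change of male against female was that of Crh, -0.14 (95% interval -0.33 to 0.059), with 3.66 ± 1.04 CPM in males and 4.02 ± 1.02 CPM in females (SD, n = 24 each). Fkbp4 was at 94.3 to 171 CPM (median 115) in males and 97.1 to 132 CPM (median 111) in females, a log2 change of 0.06 (95% interval -0.011 to 0.13).

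After subtraction of each group's mean, the highest Pearson r among the 28 pairs over 48 libraries was that of the receptors Nr3c1 and Nr3c2, at 0.50, followed by Fkbp4 with Crhr1 at 0.49 and Fkbp4 with Crh at 0.41. Their Spearman rho was 0.44, 0.34 and 0.26, and the library with muscle transcripts held the highest refed values of both Fkbp4 and Crhr1. The lowest was that of Nr3c2 with Hsd11b1, at -0.38. All of these values share their libraries, depth and dissection, and counts of Crh and Crhr2 were low. By the same measure Nr3c2 had an r of 0.47 with the log2 library total, and the other members lay between -0.33 and 0.21. Over the 15908 tested genes with a mean of 1 CPM or more, the genes most like Nr3c1 by the same measure were Ttll7, Purb and Clcn3 (r of 0.69, 0.68 and 0.67), and those most like Nr3c2 were Arnt2, Cyfip2 and Abr (0.82, 0.81 and 0.81). For Hsd11b1 they were Laptm4a, Lxn and Coq7 (0.74, 0.74 and 0.73), and for Fkbp4 the creatine kinases Ckb and Ckmt1 with Dync1i1 (0.80, 0.79 and 0.76). Crhbp was most like Nrn1, Ncald and Lgalsl (0.76, 0.74 and 0.72) and Crhr1 most like Mpp3, Zic2 and Trim62 (0.77, 0.76 and 0.75). Crh was most like the cochaperone gene Stip1, then Sncg and Mab21l2 (0.68, 0.63 and 0.63), and Crhr2 reached 0.55, 0.54 and 0.53 with Ift43, Noa1 and Slc27a3.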

How the data were processed

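Poly-A RNA of one hemisphere per mouse was sequenced from libraries made with the VAHTS Universal V10 kit, per the labels' protocols. The authors deposited estimated counts (expected counts) per gene symbol, unscaled between libraries. The submitters' processing notes name fastp, STAR, Salmon and build mm39, without versions; annotation and strand setting are not given in the sources used here. No row lacked a gene name.

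Groups came from the labels' sex, genotype and treatment. Replicates were numbered in accession order and pair nothing; replicates are separate mice that also differ in age and library number, and p-values measure the spread between them. The estimated counts were rounded to integers, which moved no library total by more than 51.1. edgeR 4.0.16 in R 4.3.3 was used: filterByExpr (minimum count 10, total 15), TMM scaling, and a quasi-likelihood fit over all 48 libraries with a coefficient for each of the 12 groups. P-values were adjusted over 17352 genes for each of 22 comparisons, and an adjusted p under 0.05 is called. Standard errors come from the F statistics, log2 CPM used a prior count of 2, and ± denotes SD. Scripts were tested on simulated data.

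The members and gene lists were chosen with earlier results of these data known. Named genes were the members, list genes called for restriction or refeeding (at most 6 per list by p), Grin1 and Aldh1a1, and the 3 genes most like each member. Alternatives were DESeq2 1.42.0, limma 3.58.1, other scaling, filter, spread, covariates, thresholds and libraries. Positions and lengths are from GENCODE M39 on GRCm39, the same build as mm39; promoter sequences are RefSeq's on GRCm38.p6.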

Additional observations from a re-analysis of the deposited data

Results flagged for a closer look

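Among the 96 sets of 4 mice (8 members in 12 groups), 5 held 1 mouse far from the other 3 by Dixon's criterion at the 95% level; chance marks about 1 in 20 such sets. Nr3c1 was at 48.1 CPM in female knockout restricted replicate 1, against 63.2 to 65.1 CPM in the other 3. Nr3c2 was at 47.6 CPM in male knockout restricted replicate 4, against 39.05 to 39.5 CPM. Hsd11b1 was at 33.6 CPM in female knockout refed replicate 2, against 28.99 to 29.6 CPM. Fkbp4 was at 171 CPM in male control refed replicate 1, the library with muscle transcripts, against 115 to 118 CPM. Crh was at 6.25 CPM (57 counts) in male knockout restricted replicate 2, against 2.89 to 3.45 CPM.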

How the results depend on the processing

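The fall of Nr3c1 on restriction and its rise on refeeding, over both sexes, kept their direction in all alternatives and their calls in all but restriction among library numbers up to 28. The count of members called for restriction, 1, was 0 there, and 2 with limma and without the 2 libraries that stand apart, where Fkbp4 was added. For refeeding the count of 5 was 3 with age and without those 2 libraries, 2 with library number and 1 among library numbers up to 28, and 3 to 5 when 1 library was left out (3 without male control refed replicate 1). In females it was 2 with limma or a threshold of 0.1, and 1 to 2 by leaving out 1 library. In males it was 1 with only the groups compared and 2 to 4 by leaving out 1 library, and for restriction in males 0 without a filter on low counts (Nr3c1, edgeR adjusted p = 0.0512). Every other count was the same with each library left out. Fkbp4 on refeeding also missed the threshold with RLE scaling (edgeR adjusted p = 0.0503), without a filter (0.0846), with age (0.06) and with only the groups compared (0.1), and Nr3c2 with age (0.0787).

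Of 404 log2 changes recomputed, 9 changed sign, 0 of them called in either fit. Crhbp came to -0.0023 and Nr3c2 to 0.0021 for restriction among library numbers up to 28, and Crhbp to 0.0020 (library number) and 0.040 (limma) for knockout. Hsd11b1 came to -0.0067 (limma) and -0.0035 (without the 2 libraries) for restriction and to -0.00063 (limma) for refeeding, and Fkbp4 to -0.0074 (limma) and -0.020 (without the 2 libraries) for refed against unrestricted mice. With 1 library left out, signs varied for Hsd11b1 in restriction (-0.0090 to 0.042) and refeeding (-0.0062 to 0.053), for Fkbp4 in refed against unrestricted mice (-0.020 to 0.036) and refeeding in females (-0.0018 to 0.061), and for Crhbp (-0.026 to 0.024) and Crhr1 (-0.0031 to 0.050) in knockouts. The causes were not tested. No paired analysis was possible because the labels carry no replicate numbers. Depth limits Crh and Crhr2 most, with as few as 19 and 9 counts.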
